A study of Mus musculus with 5 samples.

Results

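The proteasome is the barrel-shaped protease that degrades ubiquitin-tagged proteins, and its genes were followed here in mouse CD8+ T cells before and during stimulation. The genes were all those whose symbol began with Psma, Psmb, Psmc, Psmd, Psme, Psmf or Psmg and a digit, which gave 49 of the 13911 genes in the table of all time points. Of the 49, 7 were alpha subunits of the 20S core (Psma1 to Psma7), 7 were its constitutive beta subunits (Psmb1 to Psmb7) and 3 were its inducible beta subunits (Psmb8, Psmb9 and Psmb10). The 19S cap was represented by 6 ATPases (Psmc1 to Psmc6), 11 non-ATPase subunits and 3 assembly chaperones. The rest were both subunits of the 11S activator (Psme1 and Psme2), 3 other activators or inhibitors (Psme3, Psme4 and Psmf1), 4 assembly chaperones of the core (Psmg1 to Psmg4), the testis form Psma8, and 2 genes not counted as subunits here. These 2 were Psmc3ip, which is no subunit despite its symbol, and Psme2b, a near-identical copy of Psme2.

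In the constitutive proteasome the proteolytic sites are formed by Psmb5 (chymotrypsin-like), Psmb6 (caspase-like) and Psmb7 (trypsin-like). In the immunoproteasome, which is abundant in lymphocytes and induced by interferon gamma, Psmb8 takes the place of Psmb5, Psmb9 that of Psmb6 and Psmb10 that of Psmb7, which shifts the cut sites toward peptides that fit MHC class I molecules. The 19S cap recognises and unfolds ubiquitin-tagged proteins, while the 11S activator opens the core without ubiquitin and is also induced by interferon gamma.

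The cells were OT-I CD8+ T cells from spleen and lymph nodes of C57BL/6-Tg(TcraTcrb)1100Mjb/J mice, whose transgenic receptor recognises the ovalbumin peptide SIINFEKL on H2-Kb. They were sorted by flow cytometry and sequenced on the 10x Genomics droplet platform before co-culture (0 h, 2952 cells), after 24 h with peptide-loaded dendritic cells (DCs) and myeloid-derived suppressor cells (MDSCs, 2247 cells), after 24 h with DCs alone (1562 cells), after 72 h with DCs and MDSCs (4942 cells) and after 72 h with DCs alone (1926 cells). MDSCs, a population of immature myeloid cells, are known to restrain T cells. All cultured cells met DCs carrying the peptide, so stimulation and time in culture cannot be told apart. Each group was 1 library, with nothing that marks it as drawn from separate cultures or animals, so there was no replicate, no test and no p-value, and every ratio compares 2 libraries.

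Levels are given as CPM, the depth-adjusted whole numbers of a gene summed over the cells of a library, per 1000000 of that library's total. Sequencing depth is unknown, since the adjustment brought the total per cell to between 13061 and 15988 in all libraries. A gene was called higher or lower at a ratio of 1.5-fold or more (0.58 on the log2 scale) if it reached 20 CPM in either library. This is a rule of size and is read against the share of all genes that passed it. The 5 T cell markers in the table, of 7 listed, (Cd3e, Cd3d, Cd3g, Cd8a and Cd8b1) summed to 5568 CPM at 0 h, 1613 and 1567 CPM at 24 h with and without MDSCs, and 3397 and 3734 CPM at 72 h with and without MDSCs. The 8 DC markers in the table summed to 2.56 CPM at 0 h, 28.9 and 27.4 CPM at 24 h with and without MDSCs, and 54.8 and 17.5 CPM at 72 h with and without MDSCs. At 72 h with MDSCs, H2-Eb1 (34.7 CPM) and Cd74 (15.7 CPM) made up most of that sum. The part of these shifts in the results was not tested. The 0 h library stood apart in its values: 58 genes at 50 CPM or more varied between its cells with a variance under 0.5 of the mean, against 0 genes in each other library. None of the 49 proteasome genes was under that limit at 0 h. Leaving out Psma8, Psmc3ip and Psme2b, 21 of them had a variance below the mean at 0 h. At 24 h 1 did with MDSCs and 9 with DCs alone, and at 72 h 2 and 0 did. The part of this in the ratios against 0 h was not tested. Cells with a myeloid marker were those above 0 for S100a8, S100a9, Lyz2, Cd14, Itgam, Cd68 or Ngp. They made up 10.9% of cells at 24 h with MDSCs and 4.16% with DCs alone. At 72 h they made up 20.5% with MDSCs and 6.49% with DCs alone, and at 0 h 0.678%. Ly6c2, Fcer1g and Tyrobp were not used for this, and Ly6c2 was above 0 in 19.1% of cells at 0 h. Ribosomal protein genes took 45.2% of the total at 0 h and 33.8% to 39.9% elsewhere, and their part in the ratios against 0 h was not tested beyond the scalings given below. Between 30 and 61 cell barcodes of each library also occurred in another library.

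The promoters of the catalytic subunits are shown because the inducible and the constitutive forms went different ways over time. Each window runs from 250 bases before to 50 bases after the transcription start in RefSeq (GRCm38.p6), 5′ to 3′ in the direction of the gene. Capitals mark a match, on either strand, to the gamma-activated site TTCNNNGAA in Psmb8 or to the antioxidant response element TGACNNNGC in Psmb5 and Psmb6.
Psmb8, chr17:34197945-34198244, + strand: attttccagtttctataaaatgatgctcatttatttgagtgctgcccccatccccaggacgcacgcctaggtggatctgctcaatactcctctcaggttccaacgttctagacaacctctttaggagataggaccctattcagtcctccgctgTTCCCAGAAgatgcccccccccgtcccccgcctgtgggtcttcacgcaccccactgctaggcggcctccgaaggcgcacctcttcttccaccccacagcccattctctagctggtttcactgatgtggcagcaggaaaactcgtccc
Psmb9, chr17:34187281-34187580, - strand: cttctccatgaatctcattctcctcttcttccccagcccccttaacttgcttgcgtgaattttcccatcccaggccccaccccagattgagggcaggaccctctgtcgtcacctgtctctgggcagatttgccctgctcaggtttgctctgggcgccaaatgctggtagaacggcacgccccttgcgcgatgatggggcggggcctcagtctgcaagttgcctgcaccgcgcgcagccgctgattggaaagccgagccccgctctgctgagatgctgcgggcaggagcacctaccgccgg
Psmb10, chr8:105938343-105938642, - strand: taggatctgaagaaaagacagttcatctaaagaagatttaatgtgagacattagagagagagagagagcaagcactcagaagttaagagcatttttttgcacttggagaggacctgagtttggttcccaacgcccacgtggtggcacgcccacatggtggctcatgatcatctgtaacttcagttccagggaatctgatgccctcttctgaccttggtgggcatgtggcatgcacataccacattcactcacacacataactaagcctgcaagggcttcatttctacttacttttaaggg
Psmb5, chr14:54617946-54618245, - strand: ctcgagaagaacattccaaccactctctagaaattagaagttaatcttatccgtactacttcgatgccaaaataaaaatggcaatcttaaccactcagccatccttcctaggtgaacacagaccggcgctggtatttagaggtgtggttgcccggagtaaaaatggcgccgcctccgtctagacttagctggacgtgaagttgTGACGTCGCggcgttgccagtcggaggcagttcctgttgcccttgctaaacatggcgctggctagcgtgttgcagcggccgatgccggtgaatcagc
Psmb6, chr11:70525107-70525406, + strand: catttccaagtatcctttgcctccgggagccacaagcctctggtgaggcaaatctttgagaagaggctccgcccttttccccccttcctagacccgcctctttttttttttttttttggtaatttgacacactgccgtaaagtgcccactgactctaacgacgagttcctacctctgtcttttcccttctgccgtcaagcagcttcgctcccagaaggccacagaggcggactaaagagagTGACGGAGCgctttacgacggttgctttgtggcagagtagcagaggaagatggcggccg
The match in Psmb8 began 97 bases before the start, that in Psmb5 47 bases and that in Psmb6 9 bases before it. Psmb9 and Psmb10 held neither these letters nor those of the interferon regulatory factor element AAANNGAAA in this window. In the GENCODE annotation used below, the windows of Psmb8 and Psmb9 lie wholly inside the gene, whose first base is further upstream. The bases before those GENCODE starts were not searched. Promoters were listed for 41 of the 49 genes. The gamma-activated site occurred in 3 of the 41 genes (Psmb8, Psmd2 and Psmg1) and in 8.30% of all 32851 promoters, and the antioxidant response element in 6 of 41 (Psmb5, Psmb6, Psmc6, Psmd9, Psmd12 and Psme4) and in 12.4% of all promoters. The interferon regulatory factor element occurred in 6 of 41 (Psmb3, Psmd4, Psmd9, Psmd11, Psme1 and Psmg4) and in 10.6% of all promoters.

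In the GENCODE M21 annotation (GRCm38) the 49 genes lay on 16 chromosomes, with a pair of clusters among the interferon-inducible members. Psmb9 (chr17:34181987-34187764) and Psmb8 (chr17:34197721-34201454) lie in the MHC on either side of Tap1 (chr17:34187553-34197225), which encodes a subunit of the transporter that carries proteasome products into the endoplasmic reticulum. The first bases of Psmb9 and Tap1 overlap on opposite strands. Psme1 (chr14:55578123-55581529) and Psme2 (chr14:55587441-55591113) lie close together. Psme2b, on chromosome 11, is a near-identical copy of Psme2, so reads of the pair may be split between them and both levels are uncertain.

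The inducible beta subunits stood at their lowest at 24 h and at their highest, for Psmb8 and Psmb9, at 72 h. Psmb8 had a level of 769 CPM at 0 h, 560.0 CPM at 24 h with MDSCs, 538 CPM at 24 h with DCs alone, 1228.5 CPM at 72 h with MDSCs and 1209 CPM at 72 h with DCs alone. Psmb9 had 237 CPM at 0 h, 121 and 116 CPM at 24 h with and without MDSCs, and 449 and 524 CPM at 72 h with and without MDSCs. Psmb10 had 200.1 CPM at 0 h, 128 and 105 CPM at 24 h with and without MDSCs, and 147 and 188 CPM at 72 h with and without MDSCs. At 24 h both libraries lay below 0 h for all 3 genes, and at 72 h both lay above 24 h, but Psmb10 did not pass its 0 h level in either.

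**Figure D1:**
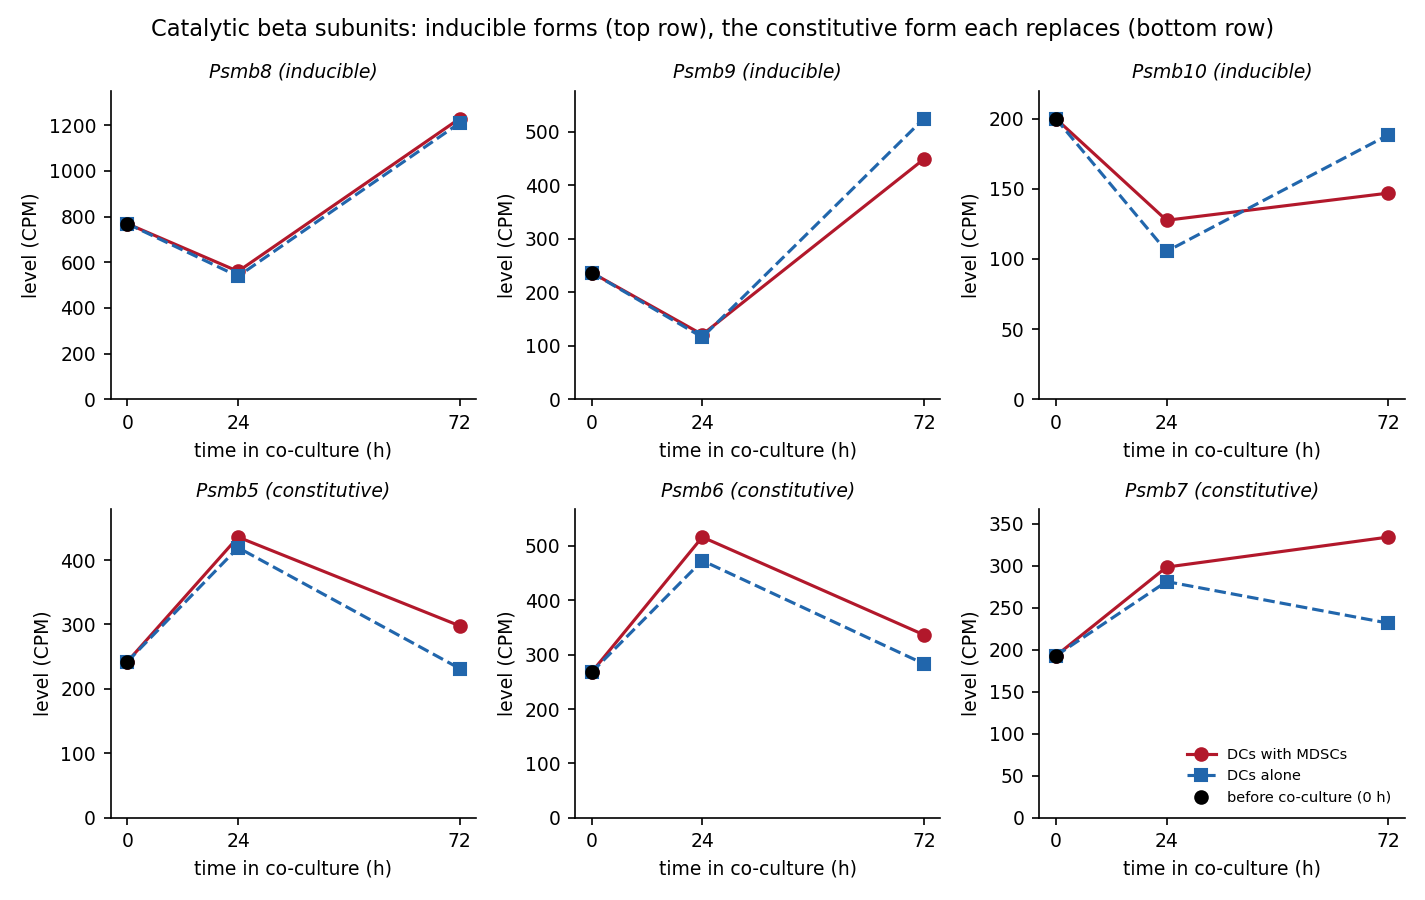
Level in CPM (y axis, from 0) of the 3 inducible catalytic subunits (top row) and of the constitutive subunit each replaces (bottom row) against hours in co-culture, 1 library per point, for DCs with MDSCs (solid) and DCs alone (dashed). The inducible genes dip at 24 h, where Psmb5, Psmb6 and Psmb7 stand above their 0 h level on this scale (Psmb7 below it, at -0.21 and -0.15, once centred on the median of all genes).

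The constitutive catalytic subunits went the other way at 24 h. Psmb5 had 242 CPM at 0 h, 436 and 419 CPM at 24 h with and without MDSCs, and 298 and 232 CPM at 72 h with and without MDSCs. Psmb6 had 267 CPM at 0 h, 516 and 473 CPM at 24 h with and without MDSCs, and 336 and 283 CPM at 72 h with and without MDSCs. Psmb7 had 193 CPM at 0 h, 298 and 281 CPM at 24 h with and without MDSCs, and 334 and 232 CPM at 72 h with and without MDSCs. All 3 were above 0 h in both 24 h libraries, Psmb5 and Psmb6 past 1.5-fold in both and Psmb7 with MDSCs. Centred on the median of all genes, Psmb7 lay below 0 h in both, at -0.21 with MDSCs and -0.15 with DCs alone, and Psmb5 and Psmb6 had log2 ratios between 0.00 and 0.13.

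How the level of each inducible subunit stood to that of its constitutive counterpart therefore differed widely between libraries, and these ratios do not change with the total a library is scaled to. The log2 ratio of Psmb8 to Psmb5 was 1.67 at 0 h, 0.36 at 24 h with MDSCs and 0.36 with DCs alone, and 2.04 at 72 h with MDSCs and 2.38 with DCs alone. That of Psmb9 to Psmb6 was -0.18 at 0 h, -2.09 and -2.03 at 24 h with and without MDSCs, and 0.42 and 0.89 at 72 h with and without MDSCs. That of Psmb10 to Psmb7 was 0.05 at 0 h, -1.22 and -1.41 at 24 h with and without MDSCs, and -1.18 and -0.30 at 72 h with and without MDSCs. Between 72 h and 24 h with DCs alone all 3 ratios were larger at 72 h, by 2.02, 2.92 and 1.12 on the log2 scale in the same order. With MDSCs the first 2 were larger at 72 h, by 1.68 and 2.51, while that of Psmb10 to Psmb7 differed by 0.04. At 72 h all 3 ratios were smaller with MDSCs than with DCs alone, with differences of -0.34, -0.47 and -0.89, of which the last passed 1.5-fold.

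At 24 h against 0 h, 27 of the 48 proteasome genes at the minimum level were higher with MDSCs and 3 were lower, and 21 of 47 were higher and 2 lower with DCs alone. Over all genes 58.1% were higher and 15.6% lower with MDSCs, and 53.3% were higher and 16.2% lower with DCs alone. The median log2 ratio of the proteasome genes was 0.63 with MDSCs and 0.52 with DCs alone, against 0.84 and 0.69 for all genes. The shares of proteasome genes that were higher, 56.2% and 44.7%, were thus no larger than those of genes at large. With ratios centred on the median of all genes 8 were higher and 8 lower with MDSCs, and 6 higher and 7 lower with DCs alone. Of all genes 31.0% were then higher and 31.9% lower with MDSCs, and 31.3% higher and 31.5% lower with DCs alone. With ribosomal and mitochondrial genes left out of the total, 15 were higher and 5 lower with MDSCs, and 15 higher and 4 lower with DCs alone. Of all genes 47.1% were then higher and 21.1% lower with MDSCs, and 47.5% higher and 19.1% lower with DCs alone. The median log2 ratio of the constitutive core was 0.61 with MDSCs and 0.52 with DCs alone, and turned to -0.23 and -0.17 with centring. That of the 19S subunits was 0.61 and 0.52, and turned to -0.23 and -0.18. The comparison with genes at large also depended on the minimum level. Among genes at 50 CPM or more in both libraries 18 of 37 proteasome genes (48.6%) were higher with MDSCs against 34.8% of all genes, and 13 of 37 (35.1%) with DCs alone against 27.7% of all genes.

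The genes that were higher at 24 h came from every group at the minimum level but the inducible and 11S subunits. The largest ratios belonged to Psmc3ip, which encodes a partner of meiotic recombinases and is no subunit, with 68.8 CPM at 24 h with MDSCs and 58.1 CPM with DCs alone against 3.27 CPM at 0 h. Psmd1, a large scaffold subunit of the 19S base, had 134 CPM with MDSCs and 105 CPM with DCs alone against 28.2 CPM at 0 h (log2 ratios of 2.25 and 1.90). Psmg3, a chaperone that helps assemble the alpha ring, had 141 CPM with MDSCs and 111 CPM with DCs alone against 29.6 CPM at 0 h (2.25 and 1.91). All 4 Psmg chaperones were higher with MDSCs and 3 of 4 with DCs alone. Psme3, the nuclear activator of the core, had 249.5 CPM with MDSCs and 247 CPM with DCs alone against 92.5 CPM at 0 h (1.43 and 1.42). Of the 14 constitutive core genes 8 were higher with MDSCs and 6 with DCs alone, and of the 17 genes for 19S subunits 9 and 7 were higher. Among all genes 58.1% were higher with MDSCs and 53.3% with DCs alone. With centring 0 of the 14 were higher in either, and 2 of the 17 (11.8%) with MDSCs and 1 (5.9%) with DCs alone. Among all genes 31.0% were then higher with MDSCs and 31.3% with DCs alone.

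The genes that were lower at 24 h included both Psmb9 and Psmb10. Psmb9 had log2 ratios against 0 h of -0.97 with MDSCs and -1.03 with DCs alone, and Psmb10 had -0.65 and -0.92. Psme2b was also lower with MDSCs, at 12 CPM against 21.4 CPM at 0 h. Psmb8 had log2 ratios of -0.46 and -0.51, short of the rule in both. It passed the rule in both with ribosomal and mitochondrial genes left out of the total (-0.76 with MDSCs and -0.70 with DCs alone) and with centring (-1.30 and -1.21). Psmb1, a constitutive beta subunit without a proteolytic site, was the one constitutive core gene with uncentred ratios below 0, at 387 CPM with MDSCs and 378 CPM with DCs alone against 547 CPM at 0 h (-0.50 and -0.53). The 11S subunits did not pass the rule uncentred. Psme1 had 471 and 526 CPM with and without MDSCs against 543 CPM at 0 h. Psme2 had 478 and 581 CPM with and without MDSCs against 472 CPM at 0 h. With centring Psme1 had log2 ratios of -1.05 with MDSCs and -0.74 with DCs alone, and Psme2 had -0.82 and -0.39.

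**Figure D2:**
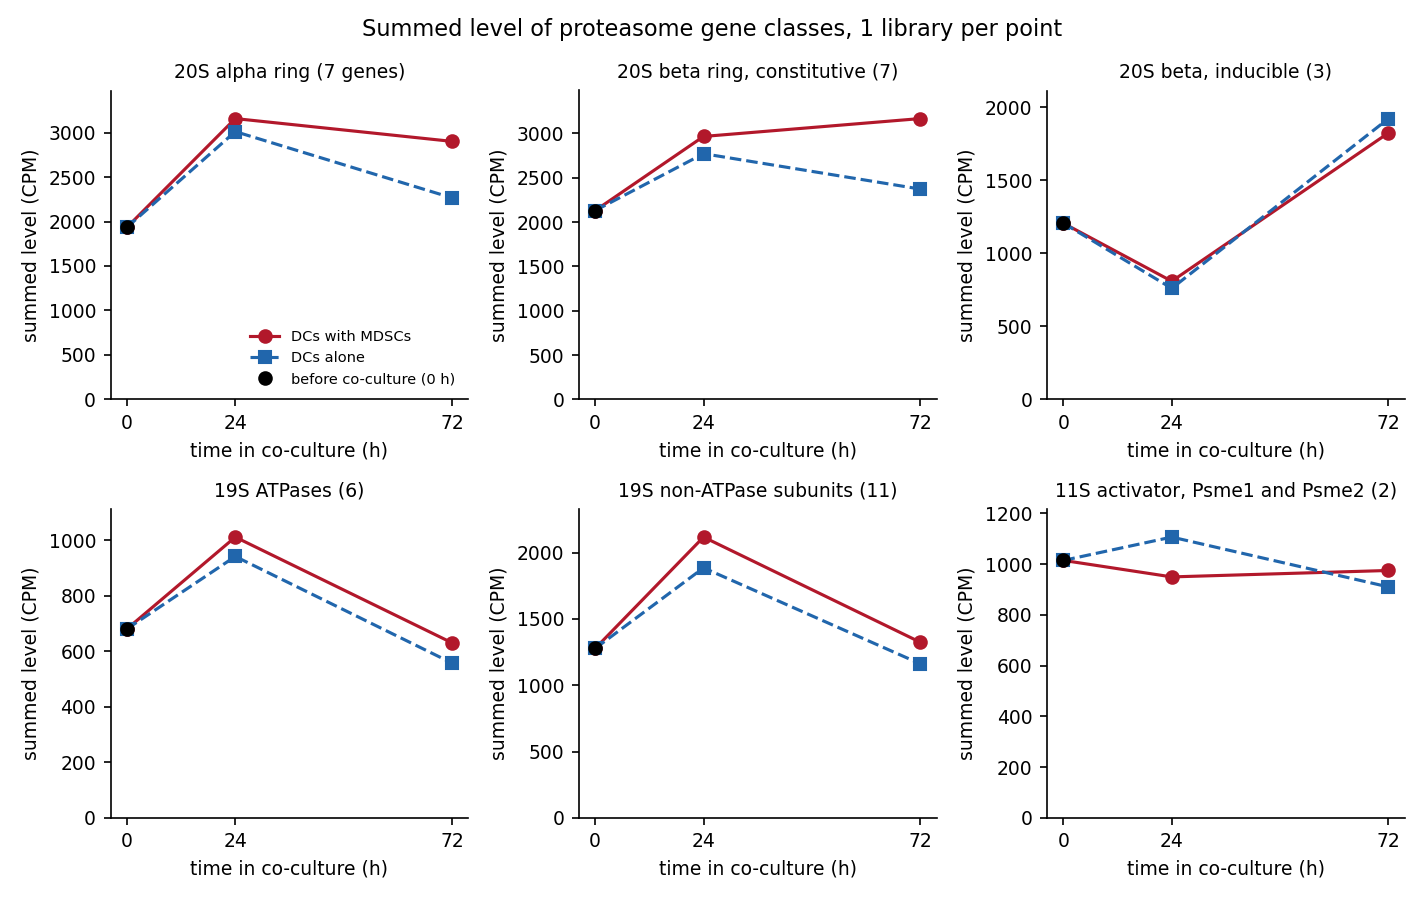
Summed level in CPM (y axis, from 0) of 6 groups of proteasome genes against hours in co-culture, 1 library per point, for DCs with MDSCs (solid) and DCs alone (dashed). On this scale the 19S groups peak at 24 h (centred on the median of all genes, their members have a median below 0 there against 0 h) and return toward their 0 h sums, the inducible beta subunits dip at 24 h and peak at 72 h, and the constitutive core sums with and without MDSCs part at 72 h.

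Between 24 h and 72 h the inducible subunits and the 19S cap differed in their calls. With DCs alone, 3 of 46 genes were higher at 72 h and 24 were lower, against 23% higher and 35.8% lower among all genes. The 3 were Psmb8, Psmb9 and Psmb10, the whole inducible group, with log2 ratios of 1.17, 2.18 and 0.84. With MDSCs, 4 of 47 were higher and 21 lower, against 16.1% higher and 44.1% lower among all genes. The 4 were Psmb9 (1.89), Psmb8 (1.13), the beta subunit Psmb1 (0.94, with 742 CPM at 72 h against 387 CPM at 24 h) and the 19S chaperone Psmd10 (0.63). Psmb10 had a log2 ratio of 0.20 with MDSCs, short of the rule. With centring all 3 inducible genes were higher with MDSCs and with DCs alone, against 28.1% and 29.2% of all genes. The median log2 ratio was -0.50 for the proteasome genes against -0.46 for all genes with MDSCs, and -0.61 against -0.25 with DCs alone. Centring left 12 higher and 7 lower with MDSCs, and 4 higher and 14 lower with DCs alone. Of all genes it left 28.1% higher and 24.8% lower with MDSCs, and 29.2% higher and 27.0% lower with DCs alone.

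Uncentred, the 19S cap gave the most genes that were lower at 72 h. Of its 17 subunit genes 12 were lower with MDSCs and 12 with DCs alone, and 0 were higher in either. With centring 1 of the 17 was higher and 4 (23.5%) were lower with MDSCs, against 24.8% lower among all genes, and 0 were higher and 9 (52.9%) lower with DCs alone, against 27.0% lower among all genes. Of the 14 constitutive core genes 2 were lower with MDSCs (Psma4 and Psmb6) and 5 with DCs alone (Psma3, Psma6, Psma7, Psmb5 and Psmb6). With centring 6 of the 14 (42.9%) were higher and 0 lower with MDSCs, against 28.1% higher and 24.8% lower among all genes. With DCs alone 1 was then higher and 1 lower, against 29.2% higher and 27.0% lower among all genes. Psme3 had the lowest ratio of all in both, with 60.4 CPM at 72 h against 249.5 CPM at 24 h with MDSCs (-2.05), and 48.0 CPM against 247 CPM with DCs alone (-2.36). Psmc5, an ATPase of the 19S base, had 85.5 CPM against 176 CPM with MDSCs, and 61.0 CPM against 176 CPM with DCs alone (-1.53). Psmd1 had 45.0 CPM against 134 CPM with MDSCs (-1.58), and 43.1 CPM against 105 CPM with DCs alone. Psmg3 had 54.7 CPM against 141 CPM with MDSCs (-1.36), and 40.1 CPM against 111 CPM with DCs alone (-1.47). Psme2 was lower with DCs alone, at 368 CPM against 581 CPM (-0.66), and had 472 CPM against 478 CPM with MDSCs. Not every 19S gene followed: Psmc6, another ATPase, had 151 CPM against 131 CPM with MDSCs, and 153 CPM against 124 CPM with DCs alone.

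Levels were also summed over each group. The 17 genes of the 19S cap are given as ATPases and other subunits. The ATPases summed to 681 CPM at 0 h, 1012 and 942 CPM at 24 h with and without MDSCs, and 631 and 558 CPM at 72 h with and without MDSCs. The non-ATPase subunits summed to 1277 CPM at 0 h, 2117 and 1885 CPM at 24 h with and without MDSCs, and 1324 and 1162 CPM at 72 h with and without MDSCs. The inducible beta subunits summed to 1205.5 CPM at 0 h, 808 and 759.9 CPM at 24 h with and without MDSCs, and 1824 and 1922 CPM at 72 h with and without MDSCs. Against 0 h the 72 h sums of the ATPases had log2 ratios of -0.11 with MDSCs and -0.29 with DCs alone, and those of the non-ATPase subunits 0.05 and -0.14, while the inducible sums at 72 h were above those at 0 h with a log2 ratio of 0.60 with MDSCs and 0.67 with DCs alone. The sum of Psme1 and Psme2 stayed between 910.0 and 1107 CPM in all 5 libraries.

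**Figure D3:**
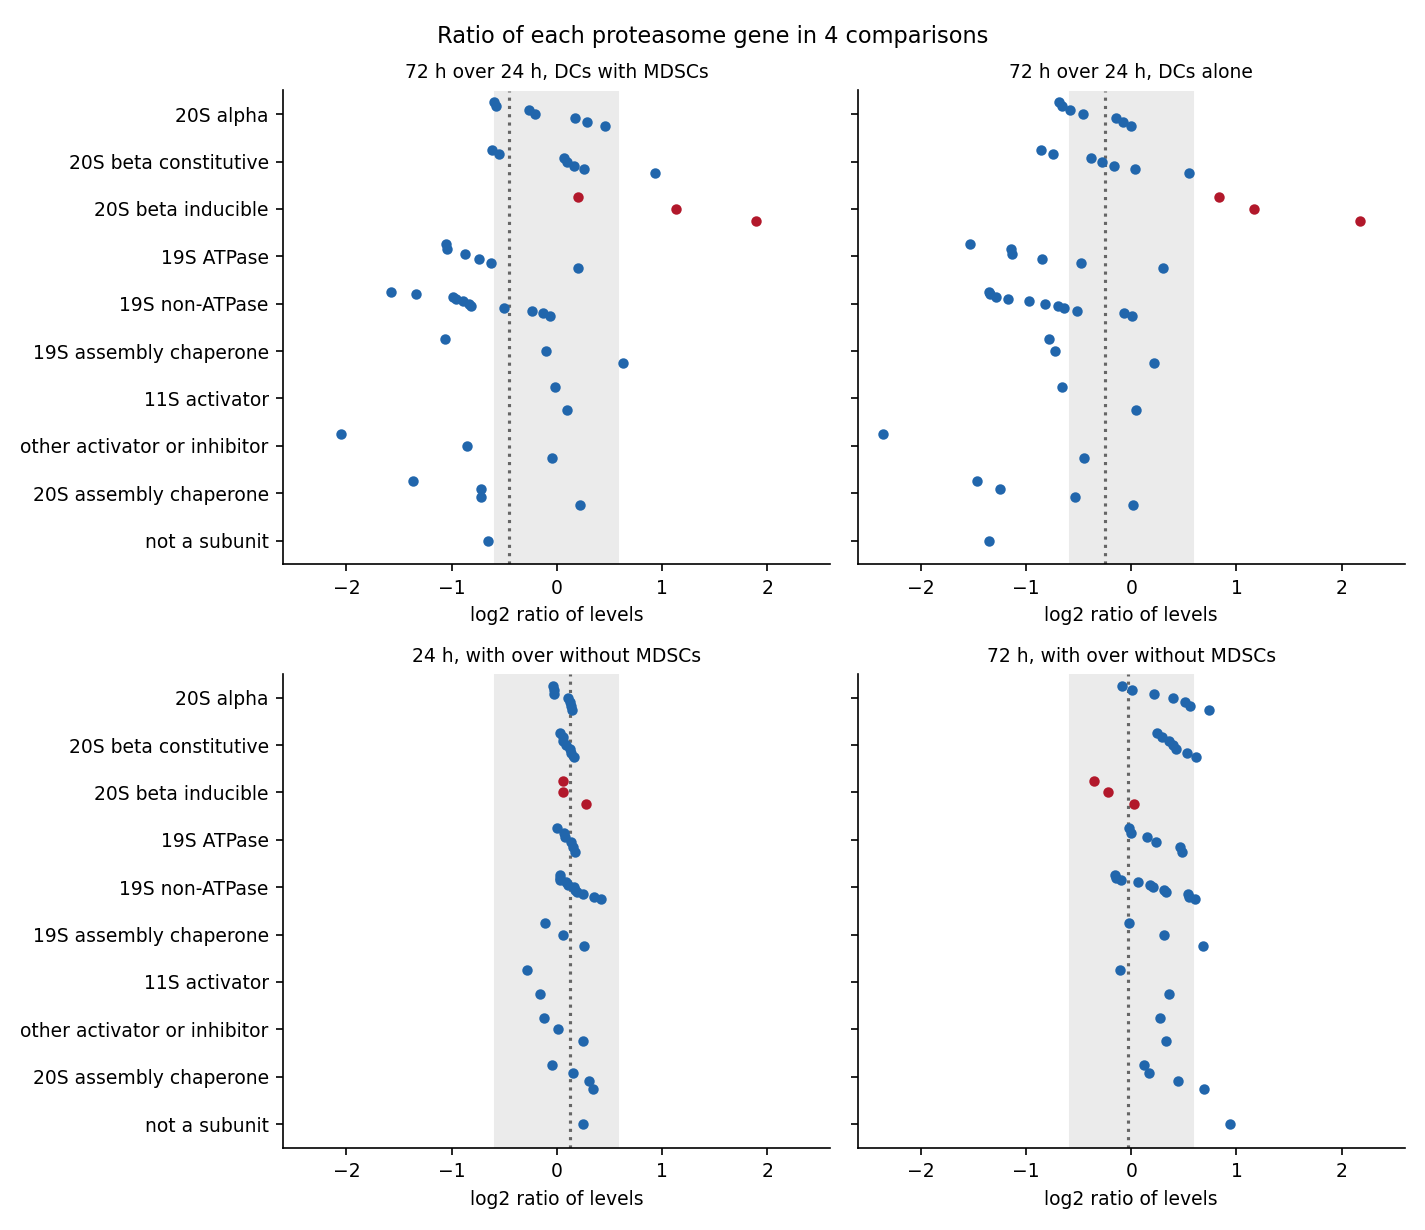
Log2 ratio (x axis) of each proteasome gene at 20 CPM or more in either library, grouped by place in the proteasome, for 72 h over 24 h with MDSCs and with DCs alone (top) and for DCs with MDSCs over DCs alone at 24 h and 72 h (bottom). The grey band spans ratios under 1.5-fold, the dotted line is the median of all genes and the inducible subunits are red. With DCs alone the inducible subunits lie right of the band and of all 19S genes at 72 h over 24 h, and all genes lie within the band at 24 h with over without MDSCs.

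Against 0 h the 72 h libraries differed in few of the 17 genes of the 19S cap, 1 higher and 0 lower with MDSCs, and 1 higher and 3 lower with DCs alone. With centring 3 (17.6%) were lower with MDSCs, against 24.6% lower among all genes. With DCs alone 9 (52.9%) were then lower, against 22.4% among all genes. In both, 0 were higher with centring, against 26.5% of all genes with MDSCs and 27.7% with DCs alone. With MDSCs, 17 of 47 proteasome genes were higher and 2 lower, against 37.9% higher and 14.8% lower among all genes. With DCs alone, 7 of 47 were higher and 5 lower, against 38.1% higher and 11.7% lower among all genes. Centred on the median of all genes, 8 were higher and 6 lower with MDSCs, and 4 higher and 12 lower with DCs alone. With ribosomal and mitochondrial genes left out of the total, 13 were higher and 4 lower with MDSCs, and 5 higher and 8 lower with DCs alone. Psmb9 had log2 ratios of 0.92 with MDSCs and 1.15 with DCs alone, and Psmb8 had 0.68 and 0.65. The call of Psmb8 was lost with that smaller total (0.52 with MDSCs and 0.45 with DCs alone) and with centring (0.38 and 0.35). Psmg1, a chaperone of alpha ring assembly, had 78.9 CPM with MDSCs and 70.4 CPM with DCs alone against 31.7 CPM at 0 h (1.32 and 1.15). Psmg2, its partner, had 55.6 CPM with MDSCs against 23.3 CPM at 0 h (1.25). Psme3 was lower in both (-0.62 and -0.95), and Psmc5 was lower with DCs alone (-0.92). Psme2b was lower in both, at 10.7 CPM with MDSCs and 11.6 CPM with DCs alone against 21.4 CPM at 0 h. Psmc3ip was higher in both, at 43.8 CPM with MDSCs and 22.8 CPM with DCs alone. Of the 14 constitutive core genes 7 were higher with MDSCs and 0 with DCs alone, and with centring 0 were higher in either. The median log2 ratio of the proteasome genes was 0.38 with MDSCs and -0.0017 with DCs alone, against 0.30 for all genes in both comparisons.

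MDSCs in the culture were accompanied by no call among the proteasome genes at 24 h. Of 47 genes 0 were higher and 0 lower, against 2.21% higher and 0.688% lower among all genes, and the ratios ran between -0.28 and 0.42 on the log2 scale around a median of 0.11, against 0.13 for all genes. The highest ratios were those of Psmd3, a 19S lid subunit (181 CPM with MDSCs and 135 CPM with DCs alone), Psmd1 and Psmg3. The lowest were those of Psme2 (478 CPM with MDSCs and 581 CPM with DCs alone), Psme1 (471 CPM and 526 CPM) and the proteasome inhibitor Psmf1 (44.2 CPM and 48.3 CPM).

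At 72 h, 6 of 46 proteasome genes were higher with MDSCs than with DCs alone and 0 were lower. Among all genes 8.72% were higher and 14% were lower, and 13.04% of the proteasome genes were higher. The median log2 ratio was 0.30 for the proteasome genes and -0.03 for all genes. Psmc3ip had 43.8 CPM with MDSCs against 22.8 CPM with DCs alone (0.94). Psma3, an alpha subunit, had 507 CPM against 303 CPM (0.74), and the beta subunit Psmb3 had 546 CPM against 356 CPM (0.62). Psmg2 had 55.6 CPM against 34.5 CPM (0.69), and Psmd5, a chaperone of 19S base assembly, had 36.6 CPM against 22.8 CPM (0.68). Psmd7, which pairs with the deubiquitinase Psmd14 in the 19S lid, had 174 CPM against 114 CPM (0.61). None of the 6 reached 2-fold. Among genes at 50 CPM or more in both libraries 3 of 37 (8.11%) were higher, against 5.69% of all genes. In the tercile of cells with the highest sum of cell cycle genes 12 of 46 (26.1%) were higher, against 11.5% of all genes. All 6 stayed past 1.5-fold under each scaling, cell subset and table tried in which they reached the minimum level.

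The constitutive core leaned one way at 72 h, with 2 of its genes (Psma3 and Psmb3) past the rule and the others short of it. Of its 14 genes 13 had a ratio above 0 and Psma5 had -0.09, with a median of 0.39, and the median lay between 0.39 and 0.45 under the 5 scalings. The alpha subunits summed to 2901 CPM with MDSCs against 2266 CPM with DCs alone, and the constitutive beta subunits to 3166 CPM against 2371 CPM. The 17 genes of 19S subunits had a median of 0.21, with 12 above 0. All genes had a median of -0.03, and the share of them above 0 was not taken. The inducible subunits did not share this lean. Psmb8 had 1228.5 CPM with MDSCs and 1209 CPM with DCs alone (0.02), Psmb9 had 449 CPM and 524 CPM (-0.23), and Psmb10 had 147 CPM and 188 CPM (-0.36). Psmb10 and Psmb9 had the lowest ratios of all 46 genes, followed by the 19S subunit Psmd8 (266 CPM and 296 CPM). Of the 11S activator, Psme1 had 502 CPM with MDSCs and 542 CPM with DCs alone, and Psme2 had 472 CPM and 368 CPM.

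Of the libraries' other measures, the share of cells with a myeloid marker was also larger with MDSCs at 72 h, at 20.5% against 6.49% with DCs alone. The sum of the 10 myeloid markers in the table was 44.0 CPM with MDSCs and 48.3 CPM with DCs alone. Ly6c2, not used here to mark myeloid cells, made up 21.01 CPM of it with MDSCs and 42.28 CPM with DCs alone. Near-equal sums therefore do not mean that the other markers had equal levels. The sum of the 8 DC markers was 54.8 CPM with MDSCs and 17.5 CPM with DCs alone. Of these 8, H2-Eb1 had 34.7 CPM with MDSCs and 1.27 CPM with DCs alone, and Cd74 had 15.7 CPM and 2.91 CPM. Itgax had 0.0533 CPM and 0.0343 CPM. Fscn1, Cacnb3, Ccl22, Ccl17 and H2-Aa had less with MDSCs than with DCs alone, Fscn1 with 0.586 CPM and 6.93 CPM. Among the defining myeloid genes, Lyz2 was at 0.0933 CPM with MDSCs and 0.0343 CPM with DCs alone, and S100a8 at 0.466 CPM and 0. Cd68 was at 18.8 CPM and 4.53 CPM. With the cells that held a myeloid marker left out, which were mostly cells with Cd68, 6 of 46 proteasome genes were still higher and 0 lower. Their median was 0.31 over the 46 genes. Of all genes 8.47% were then higher and 13.8% lower.

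The genes were also summed within each cell. The summed adjusted numbers of the 14 constitutive core genes had a median per cell of 56 at 0 h, 93 and 89 at 24 h with and without MDSCs, and 93 and 69 at 72 h with and without MDSCs. Those of the 17 genes of 19S subunits had a median of 27 at 0 h, 47 and 44 at 24 h with and without MDSCs, and 29 and 25 at 72 h with and without MDSCs. Those of the inducible subunits had a median of 16 at 0 h, 12 and 10 at 24 h with and without MDSCs, and 27 and 28 at 72 h with and without MDSCs. At 72 h the quartiles of the constitutive core were 78 and 107 with MDSCs against 58 and 80 with DCs alone, while those of the inducible subunits were 22 and 32 against 22 and 35. The share of cells in which Psmb9 was above 0 was 99.9% at 0 h, 77.7% and 69.5% at 24 h with and without MDSCs, and 99.3% and 99.6% at 72 h with and without MDSCs. Free RNA in the droplets was not measured.

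**Figure D4:**
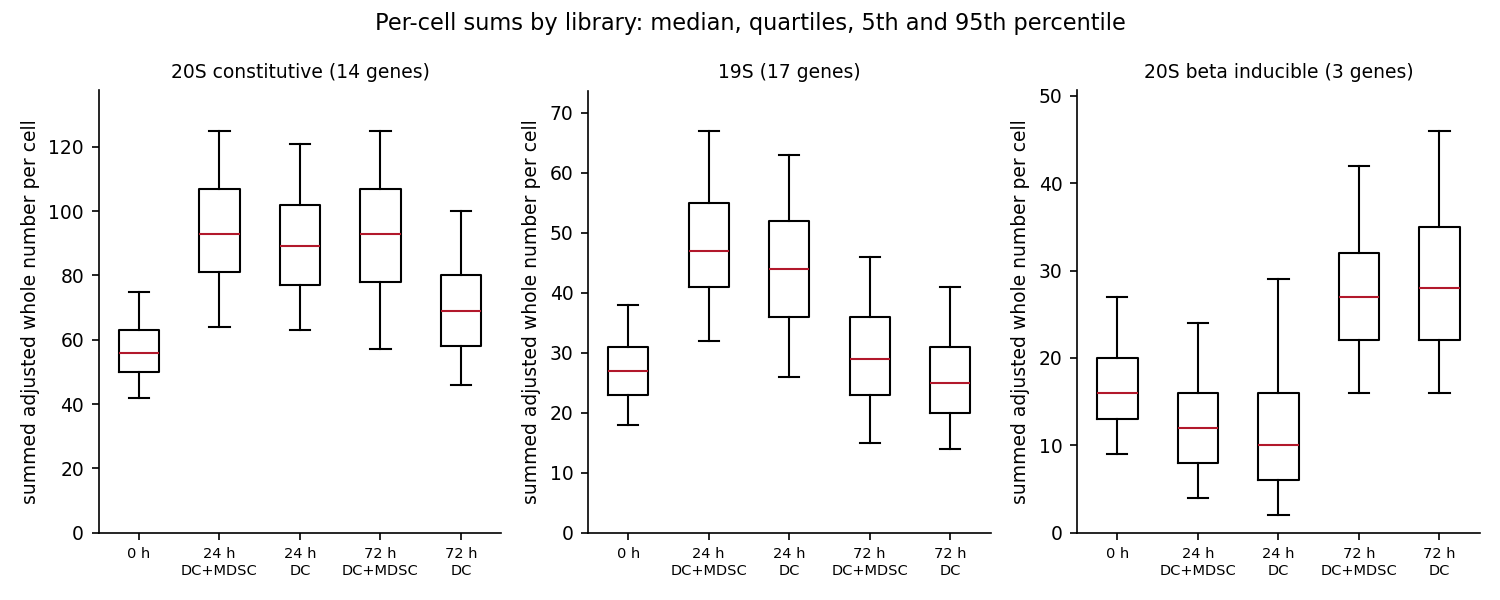
Summed adjusted whole numbers per cell (y axis, from 0) of the constitutive core, the 19S cap and the inducible subunits in each library. Boxes give the quartiles, red lines the medians and whiskers the 5th and 95th percentiles over cells. The constitutive core medians are 93 and 69 at 72 h with and without MDSCs, where those of the inducible subunits are 27 and 28.

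Across the cells of a library the core and the cap varied together more than either did with the inducible subunits. Spearman's rho between the constitutive core and the 19S sums was between 0.33 and 0.59 over 1562 to 4942 cells. Between the core and the inducible sums it was between 0.16 and 0.26, and between the 19S and the inducible sums between -0.07 and 0.22. The cells of a library share its preparation, its depth adjustment and part of its composition, so these values only describe the libraries. The inducible sums cover 3 genes against 14 and 17, and the part of this in the lower rho was not tested. Cells were also ranked into terciles within each library by the sum of S phase and of G2 and M phase genes. The summed level of the 11S subunits had log2 ratios of the highest over the lowest tercile of -0.50 at 24 h with MDSCs and -0.52 with DCs alone, short of the rule. That of the inducible subunits had log2 ratios of -0.34 with MDSCs and -0.39 with DCs alone, that of the alpha subunits -0.28 and 0.0024, and that of the constitutive beta subunits -0.30 and -0.10. The median of all genes was 0.22 with MDSCs and 0.33 with DCs alone.

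Interferon gamma transcripts marked a subset of cells at 24 h, and the interferon-inducible subunits did not pass the rule between it and the other cells. Ifng was above 0 in 640 of the 2247 cells with MDSCs and in 247 of the 1562 with DCs alone. In cells with Ifng against cells without it, Psmb9 had 115 CPM against 123 CPM with MDSCs, and 105 CPM against 118 CPM with DCs alone. The 6 catalytic and the 11S subunits had log2 ratios between -0.16 and 0.10 in these comparisons.

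Genes that act with the immunoproteasome in MHC class I presentation were set beside it, as 17 genes of which 15 or 16 reached the minimum level. At 24 h against 0 h, 3 of 16 were higher and 9 lower with MDSCs, against 58.1% higher and 15.6% lower among all genes, and 3 of 16 higher and 8 lower with DCs alone, against 53.3% and 16.2%. The highest were Calr, a chaperone of the endoplasmic reticulum (695 CPM with MDSCs and 651 CPM with DCs alone against 316 CPM at 0 h), and Erap1, which trims peptides. The lowest with MDSCs were H2-Q4 (14.5 CPM against 50.3 CPM at 0 h) and Tapbp, which bridges class I molecules to the transporter (62.3 CPM against 158 CPM). At 72 h against 24 h, 3 of 15 were higher and 4 lower with MDSCs, against 16.1% and 44.1% of all genes. With ribosomal and mitochondrial genes left out of the total 6 were higher, against 20.5% of all genes. With DCs alone 7 of 16 were higher and 2 lower, against 23% and 35.8% of all genes, and H2-Q7 was among the higher (353 CPM at 72 h against 114 CPM at 24 h). At 72 h with MDSCs against DCs alone 0 of 15 were higher and 6 lower, against 8.72% and 14% of all genes. Tap1, the gene between Psmb9 and Psmb8, had 103 CPM with MDSCs and 207 CPM with DCs alone (-1.01), against -0.23 for Psmb9 and 0.02 for Psmb8. H2-Q6 had 26.7 CPM and 45.1 CPM (-0.76).

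Of 14 interferon signalling genes, 9 reached the minimum level at 72 h, where 0 were higher and 4 lower with MDSCs than with DCs alone, against 8.72% and 14% of all genes. Irf1, a transcription factor that activates Psmb9 and Tap1, had 33.2 CPM with MDSCs and 62.9 CPM with DCs alone (-0.92), and Irf8 had 113 CPM and 205 CPM (-0.87). At 24 h with MDSCs against DCs alone 1 of 9 was lower, the receptor chain Ifngr2, and 0 were higher, against 0.688% lower and 2.21% higher among all genes. Ifngr1, the other receptor chain, had 120.3 CPM at 0 h, 24.9 and 25.8 CPM at 24 h with and without MDSCs, and 161 and 229 CPM at 72 h with and without MDSCs, with its lowest levels at 24 h. At 24 h against 0 h, 2 of 11 interferon signalling genes were higher and 6 lower with MDSCs, where 58.1% of all genes were higher and 15.6% lower. With DCs alone 3 of 13 were higher and 6 lower, where 53.3% of all genes were higher and 16.2% lower.

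Proteasome parts and regulators without a Psm symbol formed another list. Of 18 such genes at the minimum level at 24 h against 0 h, 13 were higher and 1 lower with MDSCs, where 58.1% of all genes were higher, and 12 were higher and 1 lower with DCs alone, where 53.3% were. The ubiquitin shuttle Ubqln4 had 43.7 CPM with MDSCs and 40.3 CPM with DCs alone against 7.06 CPM at 0 h. At 72 h against 24 h, 1 was higher and 10 lower of 18 with MDSCs, where 44.1% of all genes were lower, and 1 higher and 10 lower of 18 with DCs alone, where 35.8% were. The ubiquitin receptor Adrm1 had 45.1 CPM at 72 h against 136 CPM at 24 h with DCs alone (-1.59), and Ngly1, which processes the transcription factor Nfe2l1, was the gene that was higher. Pomp, the maturation factor of the core, had 609.7 CPM at 72 h with MDSCs and 402 CPM with DCs alone (0.60) and was the single gene of 15 that was higher there, while Ngly1 was lower (25.4 CPM with MDSCs and 40.2 CPM with DCs alone). Among 14 genes of ubiquitin, its conjugating enzymes and the unfoldase Vcp with its cofactors, 5 were higher and 2 lower at 24 h against 0 h both with MDSCs and with DCs alone, a smaller share higher than the 58.1% and 53.3% of all genes. Ube2c, a mitotic conjugating enzyme, had 361 CPM at 72 h against 64.8 CPM at 24 h with MDSCs and 359 CPM against 25.3 CPM with DCs alone. At 72 h with MDSCs against DCs alone 0 of 13 were higher and 0 lower.

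Psma8 and Psme4 were the lowest of the subunit and activator genes in every library. Psma8 was listed at 0 at 0 h and reached at most 0.520 CPM, in the 72 h library with MDSCs. Psme4, the activator known as PA200, had 7.74 CPM at 0 h, 23.4 and 19.7 CPM at 24 h with and without MDSCs, and 13 and 18.1 CPM at 72 h with and without MDSCs.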

How the data were processed

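OT-I CD8+ T cells were sorted and captured on the 10x Genomics droplet platform, according to the labels' protocols. The submitters' processing notes list Cell Ranger 2.0.1, Seurat and mm10 without their roles, and the aligner and the depth adjustment are not given in the sources used here. The deposited values are on a natural log scale: undoing the natural log and subtracting 1 gave whole numbers within 1e-06 for all values of the authors' tables. These numbers were adjusted for depth (coefficient of variation of the total per cell 4.95%) and are not molecule counts, although the design had assumed counts, so no count model or counting interval was used. Tables of all time points, of 24 h and of 72 h were adjusted separately, and the first gave the reported values, with the others as alternatives. All deposited cells were kept, and doublets were not treated.

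Whole numbers were recovered, summed per gene and library and scaled to 1000000. Genes were called at 1.5-fold with 20 CPM or more in either library. The members, lists and rules were chosen with earlier results of these data known, and the comparisons by Ifng, by cycle tercile and of sums across cells were added with results in view. Named genes were the catalytic and 11S subunits, the 3 proteasome genes with the largest ratio each way per comparison, those past 1.5-fold between MDSCs and DCs alone, and from each companion list some of the 2 with the largest ratio each way. Psma4, Psma5, Psma6, Psma7, Psma8, Psmc6, Psmd10 and Psme4 were added after their values were seen. Promoters came from RefSeq (GRCm38.p6), positions from GENCODE M21. A planned comparison of protein sequences was not made. Scripts ran in Python 3.11.15 with NumPy 2.4.6, SciPy 1.17.1, pandas 2.3.3 and matplotlib 3.10.9, and simulated libraries were used to check how the ratios are computed. Alternatives were other scalings, minimum levels, folds, cell subsets and tables.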

Additional observations from a re-analysis of the deposited data

Results flagged for a closer look

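Several proteasome genes had ratios in opposite directions in 2 groups under the same contrast. With 1 library per group these differences were not tested, and none of the genes below passed 1.5-fold in both directions. The share of all genes with such opposite signs was not taken, so the counts below cannot be read as particular to proteasome genes. Of 46 genes compared, 17 differed in the sign of the ratio of DCs with MDSCs over DCs alone between 72 h and 24 h. The widest apart were Psma3 (0.74 at 72 h and -0.02 at 24 h), Psme2 (0.36 and -0.28), Psmb10 (-0.36 and 0.28), Psma2 (0.51 and -0.02) and Psmd3 (-0.094 and 0.42). Psmc5 had 0.49 and -0.00082, Psma6 had 0.39 and -0.03, Psmd10 had 0.31 and -0.11, Psmf1 had 0.27 and -0.13, and Psmg1 had 0.16 and -0.04. Psmb9 had -0.23 at 72 h and 0.06 at 24 h, Psmd9 had -0.024 and 0.26, Psmd2 had -0.15 and 0.11, and Psmd8 had -0.16 and 0.09. Psma5 had -0.092 and 0.11, Psmc3 had -0.0057 and 0.14, and Psmc6 had -0.017 and 0.08. Centred on the median of all genes, 11 of the 17 still had opposite signs, and Psma5, Psmb9, Psmc3, Psmd2, Psmd8 and Psmd9 did not.

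Another 7 of 46 differed in the sign of the ratio of 72 h over 24 h between DCs with MDSCs and DCs alone. Psma3 had 0.18 with MDSCs and -0.59 with DCs alone, Psma2 had 0.45 and -0.08, Psmb3 had 0.10 and -0.38, and Psmb7 had 0.16 and -0.28. Psma1 had 0.29 and -0.14, Psmb2 had 0.069 and -0.17, and Psmd8 had -0.24 and 0.0076. With centring only Psma3 (0.63 and -0.34), Psmb3 (0.55 and -0.14) and Psmb7 (0.62 and -0.03), 3 of the 7, still had opposite signs.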

How the results depend on the processing

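No paired analysis was possible because each group is 1 library, and no library could be left out for the same reason. Single genes had no replicate spread, so those named by rule in each comparison were compared by side of the 1.5-fold rule: of 2776 such values, 2553 kept direction and side, 112 lost the call, 51 gained it, 58 changed sign without a call and 2 changed sign with one. Those 2, past the rule on 1 side or the other of the change, were Psmb7 (-0.21) and Psme2 (-0.82) at 24 h with MDSCs against 0 h, with ratios centred on the median of all genes. Over all proteasome genes, centring turned the sign of 10 that had been called against 0 h at 24 h with MDSCs, of 5 at 24 h with DCs alone, and of 0 in the other comparisons. The shift of that median was 0.84 at 24 h with MDSCs and 0.69 with DCs alone against 0 h.

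Counts are given as higher and lower. The shares of all genes moved under these alternatives too, so the counts show only how calls moved. With centring they were 6 and 7 at 24 h with DCs alone against 0 h, 8 and 8 at 24 h with MDSCs, 4 and 12 at 72 h with DCs alone, 8 and 6 at 72 h with MDSCs, 14 lower at 72 h against 24 h with DCs alone, and 12 and 7 with MDSCs. At 2-fold they were 10 and 1, 13 and 0, 3 and 0, and 5 and 1 in the same order against 0 h, 11 lower and then 2 and 7 for 72 h against 24 h, and 0 higher at 72 h with MDSCs against DCs alone. Without ribosomal and mitochondrial genes in the total, 4 were lower at 24 h with DCs alone and 15 higher and 5 lower with MDSCs against 0 h, 8 and 4 lower at 72 h with DCs alone and with MDSCs, and 1 lower at 24 h with MDSCs against DCs alone. At 50 CPM or more in both libraries, an alternative chosen after seeing the data, 13 were higher at 24 h with DCs alone against 0 h, 2 higher and 3 lower at 72 h with DCs alone, 9 and 1 at 72 h with MDSCs, and 3 higher at 72 h with MDSCs against DCs alone. At a minimum of 50 CPM 3 were higher at 72 h with DCs alone and 1 lower with MDSCs against 0 h. In the highest tercile of cycle sums 4 were lower at 24 h with DCs alone, 17 higher with MDSCs, 4 higher at 72 h with DCs alone and 1 lower with MDSCs against 0 h, and 12 higher at 72 h with MDSCs against DCs alone. In the lowest tercile 3 were higher at 24 h with MDSCs against DCs alone and 1 lower at 72 h with MDSCs against 0 h, as was 1 without cells with a myeloid marker.

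The difference of the log2 ratio of Psmb9 to Psmb6 at 72 h with MDSCs and with DCs alone was -0.60 in the highest and -0.66 in the lowest tercile of cycle sums, past 1.5-fold in both. At 72 h with MDSCs against 0 h it was 0.55, no longer past it, without cells with a myeloid marker. Near 0, that of Psmb9 to Psmb6 at 24 h with MDSCs against DCs alone was 0.10 in the highest tercile and 0.057 from mean natural log values. That of Psmb8 to Psmb5 was -0.16 in the lowest tercile, -0.00997 with equal weight per cell, -0.0094 in the separately adjusted 24 h table and -0.000748 without cells with a myeloid marker. That of Psmb10 to Psmb7 at 72 h against 24 h with MDSCs was -0.12 in the highest tercile.

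Without ribosomal and mitochondrial genes in the total the MHC class I genes had 2 higher and 4 lower at 72 h with DCs alone against 0 h, 1 higher with MDSCs, and 6 higher at 72 h against 24 h with MDSCs. Interferon signalling genes had 1 higher and 6 lower at 72 h with MDSCs against 0 h. Proteasome regulators had 1 higher at 72 h with DCs alone and 2 lower with MDSCs against 0 h, 2 higher at 72 h against 24 h with MDSCs and 2 higher at 72 h with MDSCs against DCs alone. Ubiquitin genes had 3 higher at 24 h with DCs alone and 3 with MDSCs against 0 h, 3 lower at 72 h with DCs alone and 2 higher at 72 h against 24 h with MDSCs. The shares of all genes moved with this total too, so these counts show only how calls moved. The causes were not tested. Depth is unknown, so counting error limits low genes to an unknown degree.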
